A study of Mus musculus with 9 samples.

Results

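The 3 libraries described here hold the transcriptome of marrow mesenchymal stromal cells from control mice aged 3 months. They were chosen by their genotype and age labels alone, as 3 of the 9 libraries of the series, and all 30579 genes of the expression table were ranked by their mean in them. The other 6 libraries came from mice of 18 months, 3 labelled aged controls and 3 labelled aged Thbs1 knockouts, and serve here only to show whether a gene could be measured elsewhere in the series. No contrast between groups was made.

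The young mice carried no genetic change that the labels name. Like every mouse of the series, they received an antibody against VE-cadherin, a junction protein of blood vessel endothelium, by the retro-orbital route 10 minutes before death. Stromal cells were then isolated from their long bones by flow sorting into TRIzol-LS, and the SMART-Seq v4 kit turned 2 ng of total RNA into each library; it amplifies full-length cDNA from few cells. The sort gate, strain and sex of the mice are not stated in the labels. Nor is it stated that the 3 libraries came from separate mice, so each SD below measures the spread between these libraries, which may be technical.

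Marrow stromal cells are the fibroblast-like support cells that line the marrow's vessels and contact its bone surfaces. They secrete the chemokine Cxcl12 and Kit ligand, which hold and maintain blood stem cells, and many of them carry the leptin receptor. They are also a source of bone-forming osteoblasts and of marrow adipocytes, and genes of both lineages can be read in them.

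Values are FPKM, fragments per kilobase of transcript and per fixed number of mapped fragments, so that levels of different genes can be set side by side per length. The steps between low FPKM values put the depth at 19.6, 17.8 and 19.6 M reads (M, mega) for replicates 1, 2 and 3. At that depth 3 reads in a gene of 2 kb come to 0.0765 to 0.0845 FPKM, and 16750 to 17870 genes were above 0 in a library. The mean reached at least 1 FPKM for 11306 genes, at least 10 FPKM for 4426, at least 100 FPKM for 473 and at least 1000 FPKM for 38. A further 10629 genes were listed at 0 in all 3 libraries, and 2762 of those were above 0 in a library of the aged mice. All 28 housekeeping genes examined were at 1 FPKM or more in each library, the lowest value being 2.46 FPKM. None of these 28 was thus listed at 0, which does not cover other widely used genes.

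Replicate 3 stood somewhat apart, and this touches many of the values below. Across the 11306 genes, which are not independent replicates, log2 values of replicates 1 and 2 correlated at 0.985, while those of replicate 3 correlated at 0.951 and 0.954 with them. The median gene differed by 0.13 on the log2 scale between replicates 1 and 2, and by 0.32 and 0.31 between replicate 3 and each of the other two. In replicate 3, 273 genes lay 2-fold above both other libraries and 271 lay 2-fold below both. For this reason the value of each library is given for the leading genes.

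**Figure D1:**
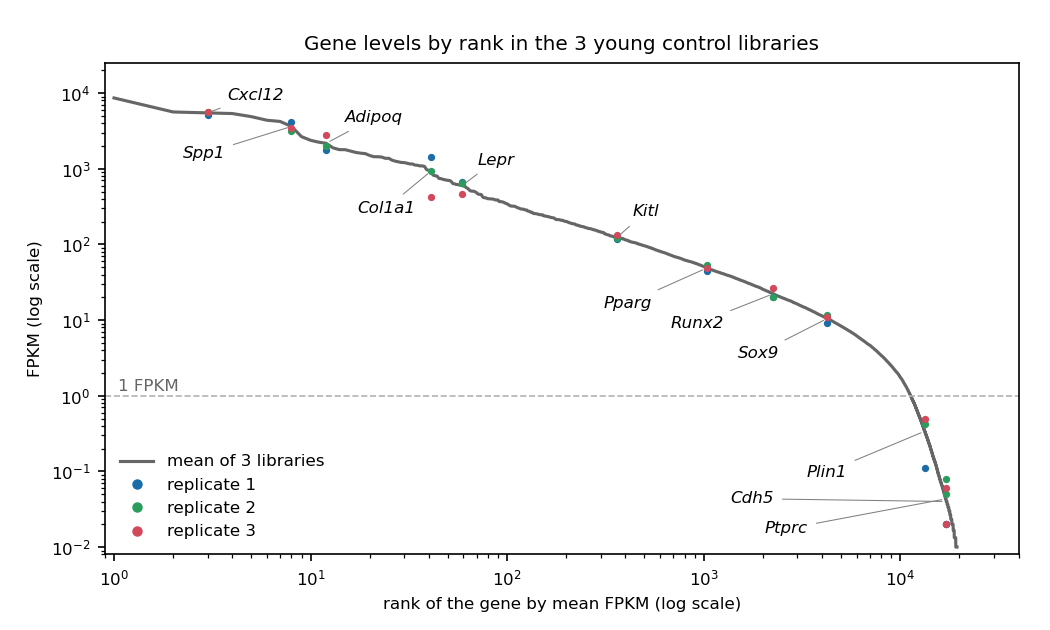
Mean FPKM of each gene against its rank, both on log axes, for the 3 young control libraries, with single libraries as points for 12 genes. Cxcl12, Adipoq, Lepr and Kitl held ranks 3, 12, 59 and 362, and Ptprc and Cdh5 lay far below the dashed line at 1 FPKM.

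The 4 genes taken as markers of these cells were all abundant, each in every library. Cxcl12 (GRCm38 chromosome 6, 117168535 to 117181367, on the forward strand) was found at 5190, 5674 and 5574 FPKM in replicates 1, 2 and 3, a mean of 5479 ± 256 (SD, n = 3) and rank 3 of all genes. Adipoq (chromosome 16, 23146536 to 23158028, forward strand), which encodes the hormone adiponectin, had 1768, 1990 and 2755 FPKM, 2171 ± 517 (SD, n = 3), rank 12. It was highest in replicate 3, while Cxcl12 hardly varied.

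Lepr (chromosome 4, 101717404 to 101815352, forward strand), the leptin receptor, had 673, 658 and 467 FPKM, 599 ± 115 (SD, n = 3), rank 59, and so the most abundant receptor gene of those examined. Kitl (chromosome 10, 100015630 to 100100416, forward strand), Kit ligand, had 119, 120 and 132 FPKM, 123.5 ± 7.46 (SD, n = 3), rank 362. The levels of the 4 genes did not overlap: in every library the order was Cxcl12, Adipoq, Lepr, Kitl. These markers of the labelled cell type were thus high in all 3 libraries. They were set in advance, and bone matrix genes such as Ibsp (mean 4222 FPKM) and Spp1 (3626) lay above Lepr. The levels are therefore no independent check of the label.

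A short stretch upstream of the RefSeq start is printed for 5 of the genes the ranking turns on: the leading chemokine, the leading adipocyte hormone, a bone matrix gene and a pair of immediate early genes. Each run is the 100 bases before the start, written 5′ to 3′ on the gene's own strand, from RefSeq on GRCm38.p6. Capitals mark the motif TATAAA, the motif CCAAT or the motif GGGCGG, on either strand, so that their reverse complements ATTGG (of the second) and CCGCCC (of the last) are capitals too. For Cxcl12 the run is chr6:117168435-117168534, for Adipoq chr16:23146436-23146535, for Spp1 the first of its 2 starts, chr5:104435011-104435110, for Fos chr12:85473790-85473889, all on the forward strand, and for Ccn1 chr3:145649986-145650085 on the reverse strand.
Cxcl12: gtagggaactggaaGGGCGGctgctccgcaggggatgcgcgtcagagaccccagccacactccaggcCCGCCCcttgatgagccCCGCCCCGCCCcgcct
Adipoq: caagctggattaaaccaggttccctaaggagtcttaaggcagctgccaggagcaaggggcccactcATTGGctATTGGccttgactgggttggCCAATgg
Spp1: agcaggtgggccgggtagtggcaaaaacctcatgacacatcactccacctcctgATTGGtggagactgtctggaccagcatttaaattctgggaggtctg
Fos: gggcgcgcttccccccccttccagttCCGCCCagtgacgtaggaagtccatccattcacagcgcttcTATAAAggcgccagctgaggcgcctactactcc
Ccn1: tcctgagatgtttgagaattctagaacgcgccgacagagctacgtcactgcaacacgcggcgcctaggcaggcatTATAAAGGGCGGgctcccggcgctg

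The run of Cxcl12 held GGGCGG at 4 places, 3 of them on the reverse strand near the start with a pair that overlaps, and no TATAAA. That of Adipoq held CCAAT 3 times. In Fos the first base of TATAAA lay 33 bases before the start and in Ccn1 25 bases before it, where it ran directly into GGGCGG. Such matches describe letters and do not show a site in use.

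Over the whole RefSeq windows, 250 bases before to 50 after the start, TATAAA on either strand occurred in 26 of the 82 most abundant genes (of 100) that had a window, 31.7%. It occurred in 8.24% of the 8654 other genes with a mean of at least 1 FPKM and in 19.7% of the 9838 genes under 1 FPKM, against 14.4% of all 18574 genes with a window. Placed wholly 40 to 16 bases before the start, it was found in 10 of the 82 genes (12.2%), in 1.34% of the other expressed genes, in 4.198% of genes under 1 FPKM and in 2.90% of all. GGGCGG occurred in 57.3% of the most abundant genes, 70.3% of other expressed genes, 28.2% of genes under 1 FPKM and 48.0% of all. CCAAT was nearly even, at 43.9%, 42.5%, 41.1% and 41.8%. TGACTCA, the AP-1 motif, occurred in 8 of the 82 windows (9.76%) and in 5.48% of all windows, and the CArG box, the motif of serum response factor, in 1 of them (1.22%) and in 1.74% of all. The median GC content of the 82 windows was 58.3%, against 61.3% in other expressed genes and 50.3% in genes under 1 FPKM. These shares were not tested, and windows with several starts counted once per gene.

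The ranking was steep at its top. The 10 most abundant genes held 14.3%, 13.9% and 15.4% of the summed FPKM of replicates 1, 2 and 3, the 100 most abundant held 37.4%, 36.4% and 37.5%, and the 1000 most abundant 66.9%, 66.5% and 69.7%. Of the 25 leading genes, 18 were among the first 25 in each library, and 14 encode a secreted product. Those 14 genes took 11.3%, 11.9% and 9.92% of the summed FPKM. Only between Spp1 and Serping1, ranks 8 and 9, did neighbours in the first 25 not overlap in their range, so the exact order within the list is not resolved by these libraries.

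Rank 1 went to B2m, the light chain of MHC class I, at 6923, 6300 and 12666 FPKM. The heavy chain genes H2-D1 (2334, 2310 and 2097 FPKM) and H2-K1 (1162, 1120 and 1184 FPKM) were abundant too. H2-D1 and H2-K1 were even across libraries, whereas B2m in replicate 3 stood above both others. Iron-handling genes formed another part of the top: Fth1, ferritin heavy chain, was at 5268, 4784 and 6842 FPKM, Trf, the iron carrier transferrin, at 1488, 1608 and 1031 FPKM, and Hp, the haemoglobin-binding haptoglobin, at 1682, 1462 and 1678 FPKM. Tfrc, the receptor that takes transferrin up, was at 0.52 to 0.74 FPKM. Gpx3, the secreted glutathione peroxidase, held rank 5 at 4878, 5490 and 4288 FPKM. The metallothionein genes Mt1 and Mt2 followed with means of 972 ± 209 and 619 ± 168 FPKM (SD, n = 3 each). H2-K1, Tfrc, Mt1 and Mt2 were picked after their values were seen.

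Also among the 25 were the actin-binding Tmsb4x (mean 5368 FPKM), the complement inhibitor Serping1 (2656), the interferon-induced membrane protein Ifitm3 (2380), Itm2b (1791), the protease inhibitor Cst3 (1712), S100a11 (1644) and the nuclear RNA Malat1 (1585 FPKM). Serping1 hardly varied, at 2668, 2708 and 2592 FPKM, while Tmsb4x, Ifitm3, S100a11 and Malat1 were highest in replicate 3, each by a wide margin. S100a11 was at 1139, 1271 and 2522 FPKM, and Malat1 at 1207, 1224 and 2323 FPKM.

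Secreted signals formed the largest of 6 hand-made classes by level. Of 316 such genes in the table, 159 had a mean of at least 1 FPKM, 41 at least 100 FPKM, and 77 were under 0.1 FPKM in all 3 libraries. Over all 30579 genes, 11306 had a mean of at least 1 FPKM, to be set beside this and the other class counts. The class took 8.69%, 9.21% and 8.16% of the summed FPKM. After Cxcl12 and Adipoq came Ccn1, a matricellular protein, at 2062, 2252 and 1358 FPKM, and Igfbp7, an IGF-binding protein, at 1435, 1781 and 2148 FPKM. Cxcl14, a chemokine, was at 1107, 1674 and 1505 FPKM. Ccn1 was lowest and Igfbp7 highest in replicate 3, and their ranges overlapped.

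Binding proteins of insulin-like growth factors recurred in the list. Igfbp5 was at 1404, 1436 and 1285 FPKM and Igfbp4 at 990, 1105 and 1183 FPKM, while the growth factor gene Igf1 itself was at 41.1, 44.6 and 55.6 FPKM. The first 10 also held Esm1, a secreted proteoglycan (1124, 1213 and 1367 FPKM), Apoe, the lipid carrier (1105, 1282 and 1234 FPKM), and Gas6, ligand of the TAM receptors (1237, 1161 and 939 FPKM). From Cxcl14 down to Igfbp4 these levels lay close together, and neighbours overlapped.

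**Figure D2:**
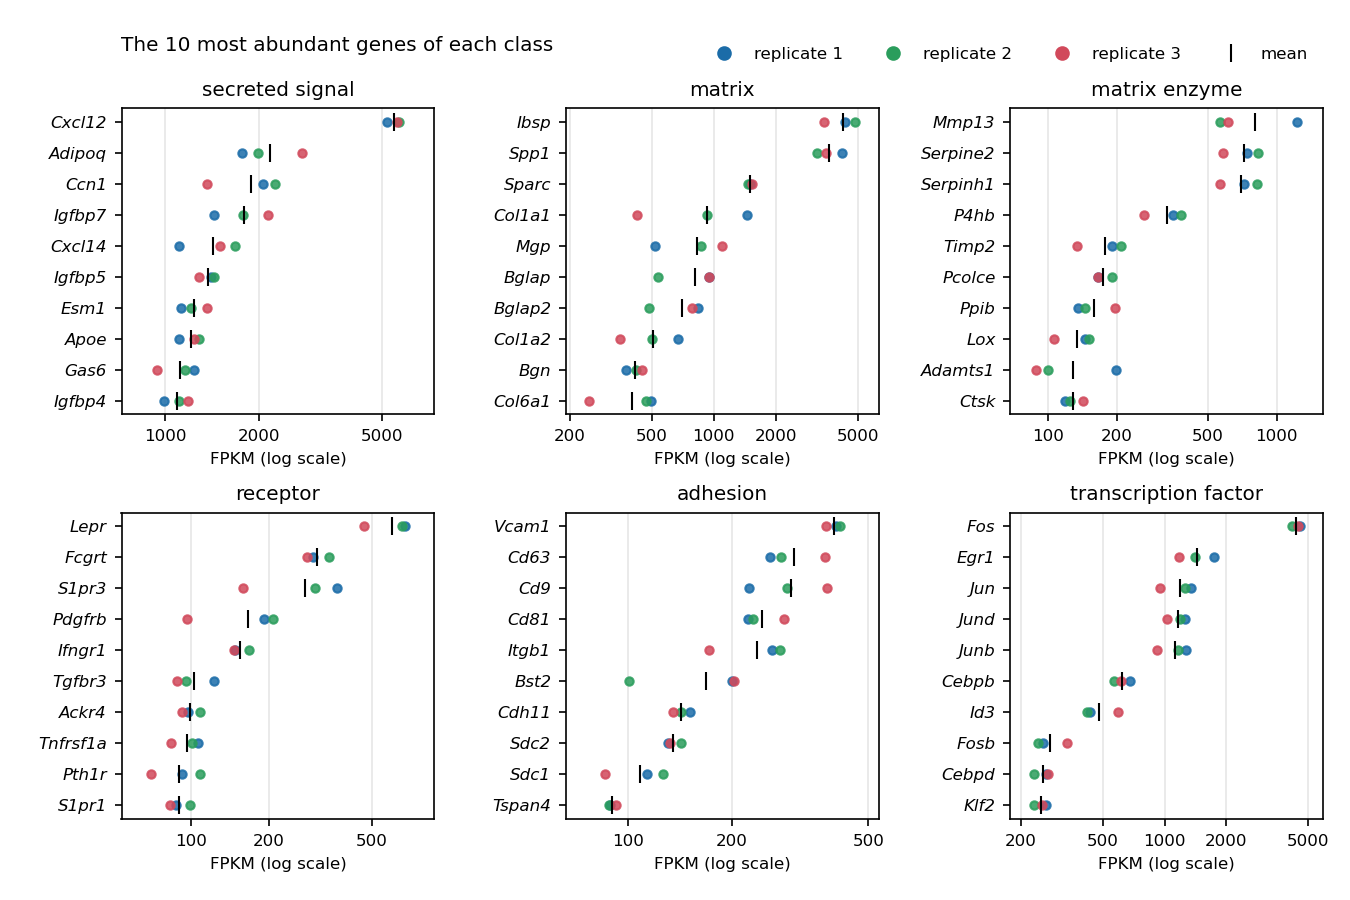
The 10 genes with the highest mean in each of 6 classes, with FPKM on a log axis that differs between panels. Points are the 3 libraries and the bar is their mean. Cxcl12, Fos and Ibsp stood clear of most of their class, and Col1a1 spread from 424 to 1444 FPKM.

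Families of signals were unevenly represented. For comparison, 11306 of all 30579 genes had a mean of at least 1 FPKM. Among chemokine genes 20 of 39 had a mean of at least 1 FPKM, and the family took 2.33%, 2.64% and 2.44% of the summed FPKM, most of it Cxcl12 and Cxcl14. Of 34 interleukin genes 9 reached 1 FPKM, led by the interleukin-1 receptor antagonist Il1rn, Il34 and Il7. Of 22 Fgf genes 6 did, led by Fgf7, and of 19 Wnt genes 4 did, led by Wnt4.

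Factors known to support blood cells were examined as a list of 28. At 1 FPKM or more in every library were 10569 of all 30579 genes and 25 of these factors. For stem cell retention these were Cxcl12, Kitl and Vcam1, an adhesion molecule that binds integrins on blood cells, at 403, 412 and 377 FPKM. Angpt1, the Tie2 ligand, was at 38, 34 and 37.1 FPKM, and Ptn, pleiotrophin, at 49.6, 42.8 and 44.5 FPKM. Of lymphoid factors, Il7, which B cell precursors need, was at 42.2, 35.5 and 41.2 FPKM, Il15 at 25.1, 23.6 and 42.5 FPKM, and Flt3l at 3.24, 3.15 and 4.95 FPKM. Il7 varied little and Il15 was highest in replicate 3.

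Among myeloid and osteoclast factors, Csf1, Il34 and Tnfsf11 lay above Il7, Il15 and Flt3l in every library. Csf1, the macrophage growth factor, was at 243, 264 and 167 FPKM and Il34, the other ligand of its receptor, at 96.8, 131.5 and 116 FPKM. Tnfsf11, which encodes the osteoclast factor RANKL, was at 112, 89.2 and 85.5 FPKM, and Tnfrsf11b, its soluble decoy receptor osteoprotegerin, at 6.05, 9.21 and 6.33 FPKM. The ligand thus lay above the decoy in each library. Il6 was at 23.5, 11.3 and 24.5 FPKM.

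Vessel and growth factors in the list included Angptl4 (310, 249.5 and 246.5 FPKM), Vegfa (158.5, 111 and 117.5 FPKM), Vegfc (108, 109 and 133.8 FPKM), Bmp6 (211, 205 and 144 FPKM), Bmp4 (81.5, 114 and 111.5 FPKM) and Fgf7 (90.5, 96.1 and 100.1 FPKM). Bmp6 is a main signal for hepcidin induction in the liver, and Vegfc a lymphatic growth factor. Lower members were the Notch ligand Jag1 (8.86 to 9.68 FPKM), Tslp (3.73 to 8.61), Tgfb1 (5.47 to 6.28) and Wnt5a (1.42 to 2.02 FPKM). The other 3 did not reach 1 FPKM throughout. Lif was at 1.19, 1.14 and 0.58 FPKM, Thpo, thrombopoietin, at 0.58, 0.89 and 0.08 FPKM, and Dll4, a Notch ligand of endothelium, at 0.03, 0.01 and 0 FPKM. The 3-read floor for Dll4 was 0.0397 to 0.0438 FPKM, so its values were at or under what 3 reads give.

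For several of these ligands the receptor gene was low in the same libraries, pairs chosen after their values were seen. Csf1r was at 1.53, 1.33 and 1.64 FPKM, Cxcr4, the signalling receptor of Cxcl12, at 0.40, 0.65 and 0.56 FPKM, and Il7r at 0.16, 0.18 and 0.13 FPKM. Tnfrsf11a, the receptor of RANKL, was listed at 0 in all 3, with a 3-read floor of 0.0256 to 0.0282 FPKM. Kit was higher, at 9.57, 11.8 and 7.59 FPKM. Receptor genes of other listed ligands, such as Bmpr1a, Fgfr2, Il6st and Lifr, had a mean of at least 10 FPKM. In RNA from a sorted population, few cells with a high level and many with a low level give the same value and cannot be told apart.

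**Figure D3:**
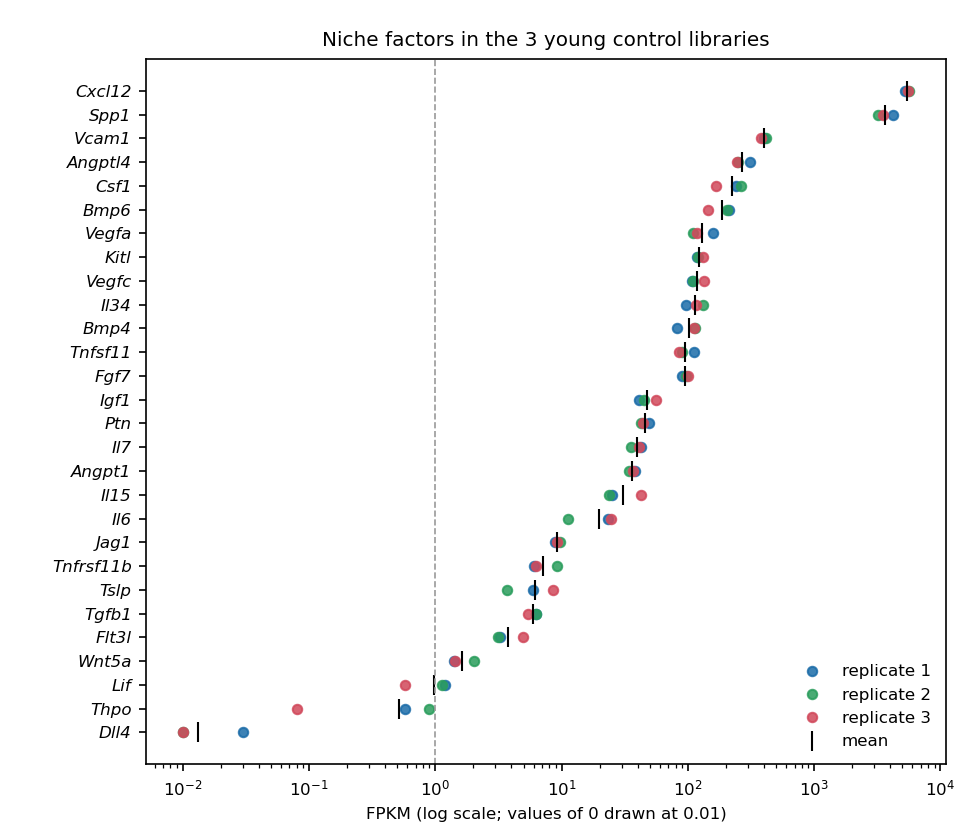
FPKM on a log axis of the 28 blood-supporting factors in each young control library, ordered by mean, with the mean as a bar and a dashed line at 1 FPKM. Values ran from Cxcl12 at a mean of 5479 FPKM to Dll4 near 0, and all libraries of most genes lay close together.

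Matrix genes made up the next class, with 113 of 161 at a mean of 1 FPKM or more, 24 of them at 100 FPKM or more. They took 6.49%, 6.08% and 4.75% of the summed FPKM in replicates 1, 2 and 3, lowest in replicate 3. The 2 leading members were SIBLING proteins of mineralised matrix, Ibsp (bone sialoprotein) at 4364, 4869 and 3433 FPKM and Spp1 (osteopontin) at 4211, 3176 and 3490 FPKM. Sparc, osteonectin, came next and was the steadiest of the class's first 10, at 1501, 1459 and 1531 FPKM.

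Fibrillar collagen I varied far more. Col1a1 was at 1444, 924 and 424 FPKM and Col1a2 at 669.5, 503 and 348 FPKM, in both cases lowest in replicate 3. Col6a1 was at 493, 466 and 248 FPKM. Mgp, an inhibitor of calcification, ran the opposite way at 520, 862 and 1094 FPKM. Osteocalcin was abundant, with Bglap at 948, 533 and 944.5 FPKM and Bglap2 at 834, 483 and 780.5 FPKM; the near-identical copies can share reads, so the split between them is uncertain. The small proteoglycan Bgn was at 373, 419 and 448.5 FPKM.

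As a family, collagens took 1.13%, 0.922% and 0.4495% of the summed FPKM, and cytosolic ribosomal proteins took 1.66%, 1.83% and 2.80%. All 18 collagen genes with a mean of at least 10 FPKM were lower in replicate 3 than the mean of replicates 1 and 2 in log2(FPKM + 1), with a median difference of −0.86. Of 80 ribosomal protein genes at that level, 79 were higher in replicate 3, with a median difference of 0.89. The difference moved with gene length over all 4374 genes at that level. Its median was 0.83 for the 251 genes with exons of up to 1000 bases, 94.0% of which were higher in replicate 3. It was 0.42 for 1000 to 2000 bases, 0.03 for 2000 to 4000, −0.19 for 4000 to 8000 and −0.16 above 8000 bases. The collagens had a median exon length of 7648 bases and the ribosomal protein genes of 1754 bases, so both families moved the way of their length and further than the median of their length range. Between replicates 1 and 2 the medians ran only from −0.12 for the shortest to 0.01 for the longest genes. What part length has in the values of replicate 3 was not tested.

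**Figure D4:**
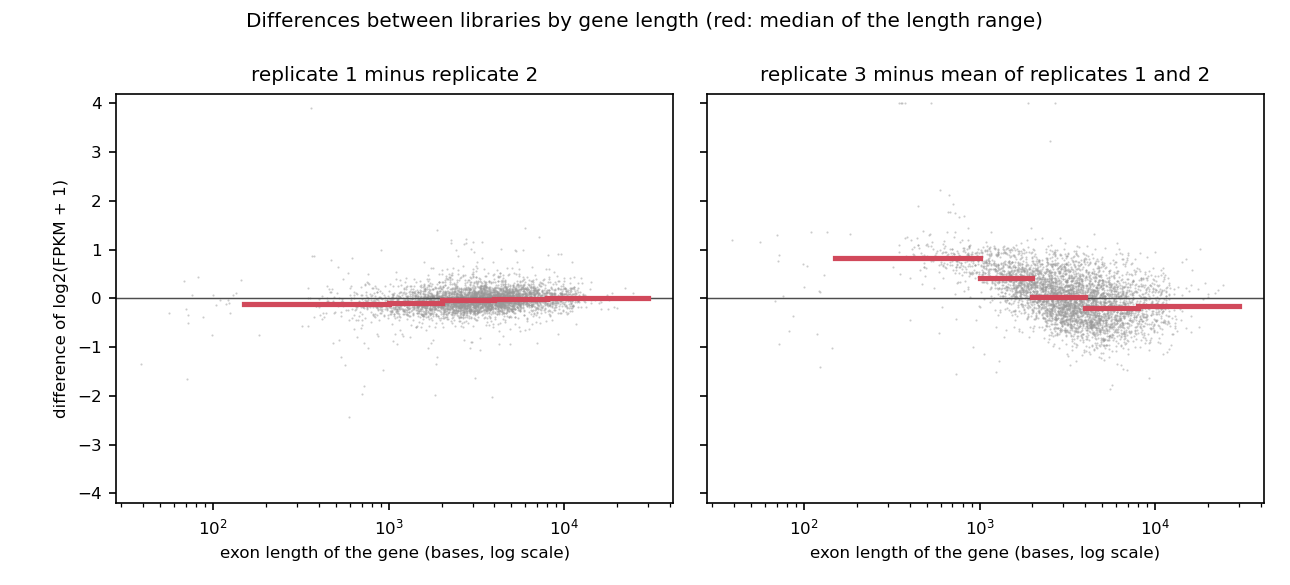
Difference of log2(FPKM + 1) between libraries against the exon length of the gene on a log axis, for 4374 genes with a mean of at least 10 FPKM. Grey points are genes, drawn at 4 where the difference is larger, and red lines are medians of 5 length ranges. The right panel falls from 0.83 to −0.16 and the left panel stays near 0.

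Enzymes and inhibitors that build or cut matrix were expressed in similar proportion, 65 of 92 genes with a mean of 1 FPKM or more. Mmp13, the collagenase of bone and hypertrophic cartilage, led at 1226, 565 and 616 FPKM, with replicate 1 above both others. Serpine2, a protease inhibitor, was at 742, 827 and 584 FPKM, and Serpinh1, the collagen chaperone HSP47, at 723.5, 818.5 and 563.5 FPKM. P4hb, a subunit of collagen prolyl hydroxylase, was at 351, 380.5 and 263 FPKM. The metalloproteinase inhibitor Timp2 (178.5 ± 39.01, SD, n = 3), the procollagen enhancer Pcolce (174 ± 13.9), the isomerase Ppib (160 ± 32.7), the collagen cross-linker Lox (135 ± 24.3), Adamts1 (129 ± 60.2) and cathepsin K, Ctsk (129 ± 12.2 FPKM), completed the first 10.

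Receptors were broad but mostly modest in level. Of 314 genes 157 had a mean of at least 1 FPKM and 6 reached 100 FPKM. Over the whole table these numbers were 11306 and 473 of 30579 genes. Lepr was followed by Fcgrt, the neonatal Fc receptor (297, 342.5 and 279.5 FPKM), and the sphingosine-1-phosphate receptor S1pr3 (365, 301.5 and 158 FPKM). Pdgfrb, the PDGF receptor of mural and stromal cells, was at 192, 208 and 96.2 FPKM. S1pr3, Pdgfrb and Lepr were all lowest in replicate 3, whereas Ifngr1, the interferon-gamma receptor, was even at 148, 167 and 146 FPKM. Tgfbr3, a TGF-beta co-receptor, the chemokine scavenger Ackr4, the TNF receptor Tnfrsf1a, the parathyroid hormone receptor Pth1r and S1pr1 had means of 102, 99.0, 96.5, 89.9 and 89.5 FPKM, within which no order can be read.

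Adhesion genes and tetraspanins reached 1 FPKM in 50 of 99 cases. Vcam1 led this class, with a mean of 397 ± 18.2 FPKM (SD, n = 3). The tetraspanins Cd63 (304 ± 60.7), Cd9 (298 ± 77.4) and Cd81 (246 ± 33.6) were each highest in replicate 3. Itgb1, the common beta-1 integrin chain, was at 262, 276 and 172.5 FPKM, lowest in replicate 3. Bst2, an interferon-induced membrane protein, was at 201, 101 and 203 FPKM, lowest in replicate 2. Cdh11, the cadherin of osteoblasts and mesenchyme, was steady at 151, 143 and 135 FPKM.

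Transcription factors were dominated by the AP-1 family. Of 554 such genes, 321 had a mean of at least 1 FPKM, and the class took 5.76%, 5.21% and 4.65% of the summed FPKM. Fos was at 4532, 4157 and 4447 FPKM, sixth of all genes, Jun at 1341, 1254 and 954 FPKM, Jund at 1260, 1193 and 1025 FPKM, and Junb at 1277, 1161 and 921 FPKM. Egr1, a zinc-finger factor induced within minutes of many stimuli, was at 1743, 1412 and 1171 FPKM. These genes were high in each of the 3 libraries, Fos without overlap with any of the others.

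Other immediate early genes, a set listed after its values were seen, ranged widely. Zfp36, which destabilises AU-rich messages, had a mean of 1444 ± 143 FPKM (SD, n = 3), the phosphatase gene Dusp1 1298 ± 138, Socs3 947 ± 230.5 and Ier2 401 ± 53.0 FPKM. Lower members were Ier3 (208 ± 41.6), Nr4a1 (173 ± 38.4), Myc (120 ± 17.6), Atf3 (107 ± 30.2) and Klf4 (32.5 ± 16.6 FPKM). The inducible heat shock genes Hspa1a and Hspa1b were far lower, at 11.4 ± 0.959 and 9.65 ± 0.697 FPKM. The remaining first 10 factors were Cebpb (621 ± 54.3), Id3 (482 ± 97.3), Fosb (278 ± 50.8), Cebpd (256 ± 21.2) and Klf2 (251 ± 18.3 FPKM).

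Factors that mark stromal and skeletal lineages were lower than the leading AP-1 genes. Foxc1 and Ebf3, both needed for the marrow's Cxcl12-rich stroma, were at 94.4, 84.5 and 119 FPKM and at 22.99, 28.5 and 38.2 FPKM. Ebf1 was at 47.4, 44.4 and 71.5 FPKM and Snai2 at 112, 124 and 143 FPKM. All 4 were highest in replicate 3. Of 39 Hox genes 23 reached a mean of 1 FPKM, led by Hoxa10 at 73.5, 75.4 and 84.8 FPKM, with Hoxa11, a limb patterning gene, at 5.24, 5.98 and 6.68 FPKM.

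The stromal identity list held 20 genes, of which 19 were at 1 FPKM or more in every library. Of all 30579 genes 10569 were, the share to set beside this and the next lists. The lists were chosen with earlier results of these data known. Besides those named, the matrix gene Tnc was at 369.5, 318 and 193 FPKM, the BMP antagonist Grem1 at 62.05, 41.04 and 82.06 FPKM, Pdgfra at 45.9, 39.4 and 31.1 FPKM and Prrx1 at 12.6, 14.5 and 17.5 FPKM. The exception was Nes, nestin, at 0.29, 0.32 and 0.24 FPKM.

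Osteoblast genes were nearly all expressed, 18 of 20 at 1 FPKM or more in every library, beside 10569 of all 30579 genes. The list summed to 15646, 12989 and 12023 FPKM. The lineage factors Runx2 (20.1, 19.9 and 26.8 FPKM), Sp7 (18.1, 19.96 and 16.1 FPKM) and Dlx5 (29.3, 29.8 and 40.3 FPKM) were steady, and Alpl, the mineralising phosphatase, was at 126.5, 137 and 105 FPKM. The 2 others, Tnn and the phosphatase Phospho1, stayed at 0.19 to 0.31 and 0.03 to 0.17 FPKM. Of 7 osteocyte genes, Phex (20.8 to 25.6 FPKM), Dmp1 (13.03 to 34.2) and Irx5 (11.2 to 18.2) were present. Sost, the sclerostin gene that marks mature osteocytes, was listed at 0 in each library with a 3-read floor of 0.0741 to 0.0818 FPKM; it was at 0 in all 9 libraries, so the table does not show whether it could be counted. Fgf23 was at 0.06, 0 and 0.06 FPKM. Bone-lining or matrix-embedded cells and stromal cells that carry bone genes cannot be told apart in these libraries.

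Cartilage genes were present at lower levels, 15 of 20 in every library. The list summed to 370.5, 712 and 354 FPKM, highest in replicate 2, but not every gene followed: Col10a1, a collagen of hypertrophic cartilage, was highest in replicate 1 at 14.55, 2.95 and 2.32 FPKM, and Snorc in replicate 3 at 5.44, 21.5 and 29.9 FPKM. Chad, chondroadherin, was at 128, 261.5 and 178.5 FPKM and Col2a1, the main cartilage collagen, at 110, 184 and 44.8 FPKM. Comp, a cartilage matrix protein, was at 43.7, 82.4 and 32.8 FPKM. Sox9, the chondrocyte factor, was at 9.07, 11.6 and 10.9 FPKM, and Sox5 and Sox6, its partners, were at 0.10 to 0.51 FPKM.

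Adipocyte genes were examined in an early list and a list of the lipid-filled cell, with Fabp4 in both. The lists were made with earlier results of these data known, so their counts do not show a division by stage. All 12 early genes were at 1 FPKM or more in every library, among them Lpl, lipoprotein lipase (363, 363 and 438 FPKM), Cebpa (51.2, 68.0 and 53.4 FPKM) and Pparg, the master factor of the lineage (44.2, 53.0 and 48.8 FPKM). Of 18 genes of the lipid-filled adipocyte, 9 were present throughout. Fabp4 was at 18.8, 33.05 and 64.05 FPKM and Cfd, adipsin, at 10.4, 30.5 and 8.53 FPKM. The lipid droplet genes Plin1 (0.11, 0.42 and 0.49 FPKM) and Cidec (0.14, 1.0 and 0.55 FPKM) were low. Lep, leptin, was at 0, 0 and 0.18 FPKM, Ucp1 at 0, 0 and 0.03 FPKM, and Pck1 at 0 in all 3. Adipoq thus exceeded Plin1 by far in every library.

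Smooth muscle and pericyte genes were low to moderate, 11 of 15 present throughout, beside 10569 of all 30579 genes. They were led by Rgs5 (25.8, 31.8 and 59.0 FPKM) and Mylk (35.9, 33.6 and 47.2 FPKM). Acta2, smooth muscle actin, was at 19.9, 18.98 and 26.3 FPKM, and Cnn1, calponin, at 0.04 to 0.12 FPKM. Of 17 genes of endosteal and periosteal fibroblasts, 8 were present, led by Gsn, Col8a1 and Ogn, while Cd34, Clec3b, Dpp4 and Sema3c stayed under 1 FPKM in every library.

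Marker genes of lineages other than stroma were then counted, although the sort gate is not stated. Over the lists of blood cells, endothelium, glia, neurons, muscle, epithelium, liver, pancreas and germ cells, 259 genes were in the table. Of these, 54 were at 1 FPKM or more in all 3 libraries, 75 were under 0.1 FPKM in all 3 and are termed absent here, 101 were between these limits and under 1 FPKM throughout, and 29 were mixed. Absent genes made up 29.0% of these markers, against 43.9% of all 30579 genes, so the count alone does not set the lists apart. Of the 75, 32 were at 0 in each library. With each library rescaled to the same sum (TPM), 48 markers were under 0.1.

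Endothelium is the cell type that the injected antibody labels. Of its 20 markers, 16 stayed under 1 FPKM in every library, 5 of them absent and 11 at trace levels. A mean under 1 FPKM was found for 19273 of all 30579 genes, to be set beside this count. Cdh5, the VE-cadherin gene itself, was at 0.02, 0.08 and 0.02 FPKM, Pecam1 at 0.05, 0.09 and 0.07 FPKM, Flt1 at 0, 0 and 0.08 FPKM, and Robo4 at 0 in all 3. Another library of the series reached 11.6 FPKM for Pecam1 and 1.99 FPKM for Cdh5, so both genes could be measured. The share absent, 5 of 20, was below that of all genes. Present throughout were 3: Ramp2, Eng and Esam. Eng is also in the stromal list. The summed level of the list was 39.6, 42.5 and 50.3 FPKM, most of it Ramp2 and Eng.

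Of 17 T and NK cell genes 9 were absent and none reached 1 FPKM, and the list had a median of 0.03 FPKM. Cd3e, Cd3g, Cd8a, Nkg7 and Gzma were at 0 in all 3 libraries, and Nkg7 reached 25.2 FPKM elsewhere in the series. Of 15 B cell genes 8 were absent and none was present throughout. By the same limit 43.9% of all genes were absent, so neither count alone sets its list apart. Ms4a1 (CD20) was at 0, 0 and 0.02 FPKM, and at 12.97 FPKM in another library, while Pax5, the B lineage factor, and Rag1 and Rag2 were at 0.05 FPKM or less. Ptprc, the pan-leukocyte CD45 gene, was at 0.02, 0.05 and 0.06 FPKM, against 4.14 FPKM elsewhere. It was the only absent gene of the 14 in the pan-leukocyte list, of which 4 were present throughout: Arhgdib (51.2, 58.5 and 83.5 FPKM), Fcer1g (45.7, 48.1 and 96.6 FPKM), Tyrobp (2.60, 4.22 and 12.5 FPKM) and Coro1a (2.16, 2.45 and 2.90 FPKM). That list summed to 105.5, 119 and 209 FPKM, highest in replicate 3.

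Antibody genes differed most between the libraries. Igkc, the kappa constant chain, was at 34.8, 81.6 and 1477 FPKM and Ighm at 6.25, 15.7 and 179 FPKM. Jchain, which links secreted antibodies, was at 2.76, 2.98 and 35.4 FPKM. Replicate 3 stood far above both others in all of them, and immunoglobulin genes took 0.0234%, 0.0497% and 0.861% of the summed FPKM. The plasma cell list of 13 genes summed to 372, 451 and 2102 FPKM, with 6 members present throughout. Igha (0.04, 5.64 and 23.5 FPKM), Ighg2b (0, 0 and 53.9 FPKM) and Derl3 (0.18, 0.42 and 0.92 FPKM) were also highest in replicate 3, whereas Mzb1 was at 0, 0.06 and 0 FPKM and Irf4 at 0, 0.14 and 0 FPKM. Other plasma cell genes, Xbp1 (122, 119 and 164 FPKM), Sdc1 and Txndc5, are not specific to that cell and varied far less. The part of antibody-producing cells in replicate 3 was not tested.

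Myeloid genes were mixed. The secretory granule and calcium-binding genes S100a8 (46.4, 71.0 and 116 FPKM) and S100a9 (36.96, 67.55 and 125 FPKM) and Ngp (22.05, 19.3 and 32.02 FPKM) were present. Present throughout were 9 of 16 neutrophil genes, beside 10569 of all 30579 genes. The list summed to 144, 212 and 336 FPKM, highest in replicate 3. The granule enzyme Mpo stayed at 0.03 to 0.30 FPKM and the factor Cebpe at 0, 0.09 and 0.08 FPKM. Of 18 monocyte and macrophage genes 5 were present, a share below that of all genes. Vcam1, which the stromal list also holds, made up most of the sum of the macrophage list. Cd14 (9.42, 18.6 and 14.6 FPKM) and Lyz2 (9.89, 17.8 and 13.7 FPKM) came next, and Adgre1, the F4/80 gene, was at 0.02, 0.03 and 0.22 FPKM. Itgax and Cd209a of the dendritic list were at 0 in all 3 libraries. So were Epx, Siglecf, Mcpt4 and Tpsb2 of the mast cell and eosinophil list, whose Prss34 was at 3.44, 4.12 and 14.1 FPKM.

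Red cell and platelet messages were low and highest in replicate 3. Hba-a1 was at 47.8, 49.9 and 159 FPKM and Hbb-bt at 23.02, 31.7 and 106 FPKM, and the erythroid list summed to 131.5, 155 and 431 FPKM. Globin genes took 0.0303%, 0.0364% and 0.1101% of the summed FPKM. The membrane gene Slc4a1 was at 0.49 to 0.55 FPKM. The platelet chemokines Ppbp (18.1, 30.6 and 38.1 FPKM) and Pf4 (8.35, 16.6 and 41.9 FPKM) were present, while Gp6 and Gp1bb stayed under 0.3 FPKM. The globin, S100a8 and Pf4 genes are short, and short genes as a whole were higher in replicate 3, so the part of length and the part of other cells cannot be told apart here.

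In the osteoclast list, 5 of 11 genes were present, beside 10569 of all 30579 genes. Ctsk was foremost at 119, 126 and 143 FPKM, while the lineage-specific Ocstamp and Tnfrsf11a were at 0 and Calcr at 0, 0.09 and 0 FPKM. Blood progenitor genes were mostly traces, 12 of 18, with Kit, Procr (6.89, 6.21 and 5.78 FPKM) and Lyl1 present.

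Outside the blood, 9 of 12 neuronal, 8 of 16 skeletal muscle, 7 of 12 epithelial and 11 of 17 liver, pancreas and germ cell genes were absent. The share of all genes was 43.9%, so these counts alone do not show a lineage to be missing. Nefl, Nefm and Gad1 of neurons, Myod1, Myf5, Pax7 and Myh2 of muscle, and Krt5, Krt14, Krt19 and Cldn4 of epithelium were at 0 in all 3 libraries. The same held for Ttr, Ins1, Ins2, Gcg, Prm1, Prm2 and Tnp1. Of 12 glial genes 2 were present throughout, S100b at 56.0, 78.4 and 93.3 FPKM and Ncmap at 1.01, 1.59 and 1.31 FPKM, with Sox10 at 0.04, 0.25 and 0.02 FPKM. S100b is also a gene of cartilage. In the muscle list 2 genes were present throughout and 4 were mixed, and the highest mean was 8.48 FPKM. Actn3, a fast-muscle gene, was at 1.34 to 2.15 FPKM, while the myosin gene Myh2 was at 0.

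**Figure D5:**
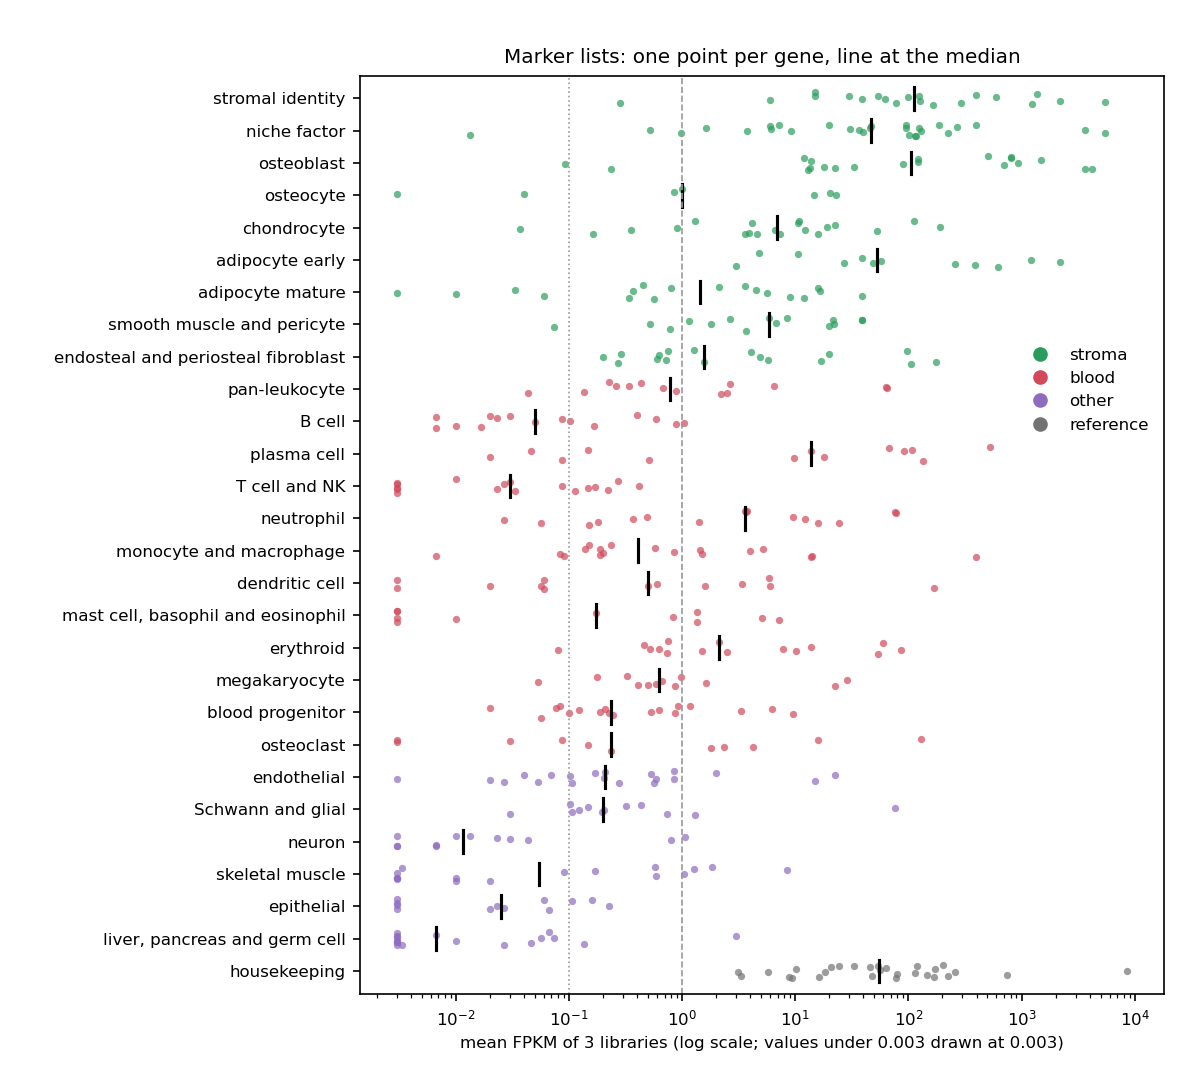
Mean FPKM of every gene of 28 marker lists on a log axis, with a line at each list's median, a dashed line at 1 FPKM and a dotted line at 0.1 FPKM. The stromal identity list had a median of 111 FPKM and the T cell and NK list one of 0.03 FPKM.

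Of the 75 absent genes, 13 reached at least 1 FPKM in a library of the aged mice: Mzb1, Ms4a1, Nkg7, Fcnb, Il5ra, Siglecf, Ptprc, Gfi1, Pecam1, Cdh5, Myod1, Krt8 and Zp3. For these the table can show expression, so the value in the young libraries is informative. A further 12 were at 0 in all 9 libraries, and for them the table does not show whether the gene could be counted. Leaving out markers whose 3-read floor was 0.1 FPKM or more, a step added after the data were seen, left 186 markers, of which 56 were absent.

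Variation between the libraries was largest in a few of these genes. Of 1020 genes with a mean of at least 50 FPKM, the median ratio of the highest to the lowest library was 1.42, with 1 FPKM added to each. It exceeded 2 for 114 of them (11.2%) and 3 for 13. Symbols of predicted genes, clones, microRNAs and pseudogenes were left out of the next ranking. Among the established symbols, the 10 largest ratios belonged to Igkv15-103, Igkv10-96, Ighv7-1, Igkc, Ighm, Hba-a2, Ccl4, Hbb-bt, Col2a1 and C4b. Of these, 8 were highest in replicate 3, Col2a1 was highest in replicate 2, and the complement gene C4b was highest in replicate 1 at 304, 265 and 81.9 FPKM. The antibody variable genes belong to families of near-identical members, among which reads can be split. Thbs1, the gene named in the knockout label of the series, was at 75.0, 73.1 and 58.0 FPKM, rank 715, and Cd47, its receptor, at 84.3, 83.1 and 96.8 FPKM, rank 549.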

How the data were processed

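The deposited table holds FPKM per gene, computed by the authors and rounded to 2 decimals. Per the submitters' processing notes, FastQC 0.11.5, STAR and edgeR were used and the builds were GRCm38 and mm10. The sources used here give neither the role of each tool nor the annotation, counter, gene lengths or handling of multi-mapping reads. FPKM is relative to each library's total. Processed copies may take reads from genes such as Gapdh (5.35, 5.48 and 6.28 FPKM).

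Columns were matched to samples by title, and 0 columns belonged to another series. Symbols matched GENCODE M21 for 30122 genes (98.5%), which gave positions and exon lengths. The table lists 0 mitochondrially encoded genes. Depth came from the step between low FPKM values of genes of 200 to 900 bases, 99.1% to 99.5% of which were whole reads within 0.1. The step search was tested on simulated data. Floors of 3 reads cover counting error only.

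Genes were ranked by mean FPKM. No test was made, since 1 group was described. The rule for named genes, of which the text names a part, took the 25 highest and the 10 highest of each class. It also took every niche factor, the 4 highest and the absent members of each list, and the 10 most variable established symbols. Others were picked after their values were seen. Members, classes and lists were chosen with earlier results of these data known, and Il1rn was moved out of the receptors after values were seen. Python 3.11.15, numpy 2.4.6, pandas 2.3.3 and matplotlib 3.10.9 were used.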

Additional observations from a re-analysis of the deposited data

How the results depend on the processing

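Over 19 results, 146 alternative values were computed, of which 136 moved by less than the spread between libraries or by less than 1.5 times for counts. Part of that count was fixed beforehand. Leaving out 1 of 3 libraries cannot move a mean by as much as 1 SD, and rescaling a library leaves its shares unchanged. The count of 136 is therefore no measure of robustness. Rescaling each library to the same sum (TPM) moved the means of Cxcl12, Adipoq, Lepr and Kitl to 16914, 6635, 1868 and 380.4, since the summed FPKM of a library was only 310044 to 351340, and the absent lineage markers from 75 to 48. With 0 FPKM in all 3 libraries as the limit 32 markers were absent, and with under 0.5 FPKM 146 were. Leaving out 1 library at a time put Cxcl12 at rank 2 to 4, with rank 4 without replicate 1 or replicate 2 and rank 2 without replicate 3. Of the 25 leading genes at least 23 remained, and of the 10 of each class at least 9, under every alternative run. Depth limits the absent genes: 3 reads in a gene of 2 kb come to 0.0765 to 0.0845 FPKM, and shorter genes have a higher floor. No paired analysis was possible because only 1 group was described.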

Other observations

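RNA other than protein-coding messages was a small part of the libraries. Protein-coding genes took 97.1%, 96.99% and 95.5% of the summed FPKM in replicates 1, 2 and 3, and long intergenic RNAs 0.608%, 0.611% and 0.954%, the latter led by Malat1.

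Antioxidant and metal-handling genes, listed after their values were seen, extended beyond the leading ferritin and Gpx3. Selenop, the selenium carrier, was at 496, 529 and 629 FPKM and Ftl1, ferritin light chain, at 1078, 1170 and 1531 FPKM. Cp, the copper-containing ferroxidase ceruloplasmin, was at 136, 127 and 109 FPKM, and Slc40a1, the iron exporter ferroportin, at 24.5, 27.9 and 20.2 FPKM. Hmox1, heme oxygenase 1, was at 18.4, 19.98 and 25.1 FPKM.

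Genes of MHC class I loading, also listed after their values were seen, were uneven. Tapbp, tapasin, was at 221, 208 and 134.1 FPKM and Tap1 at 17.6, 14.1 and 10.1 FPKM, both lowest in replicate 3, where B2m was highest. Nlrc5, the transactivator of class I genes, was at 4.92, 3.79 and 3.47 FPKM.

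The sex of the mice is not given in the sources used here. Xist, the RNA of the inactive X chromosome, was at 18.6, 18.98 and 38.9 FPKM. Of 250 genes of the Y chromosome none had a mean of 1 FPKM, with Eif2s3y, Kdm5d and Uty at 0 in all 3 libraries and Ddx3y at 0, 0.01 and 0 FPKM.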
